A study of Homo sapiens with 6 samples.

Results

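The comparison set dKO NPCs that expressed BAF53B against dKO NPCs without it, using the peaks of chromatin accessibility called in each. It took 4 of the 6 samples of the study, chosen by their labels, and their 2 peak lists of 25439 peaks (dKO) and 16948 peaks (BAF53B), out of 50267 peaks in all 3 lists. The assay was ATAC-seq, which uses a transposase, Tn5, to cut and tag DNA where nucleosomes leave it free. All cells were human neural progenitor cells (NPCs) by label, made from H1, a human embryonic stem cell line. The dKO cells lacked working UTX (gene KDM6A) and JMJD3 (gene KDM6B), and both groups compared here carry that knockout. Per the study's methods the knockout lines were drug-selected clones, and BAF53B was brought in by lentivirus. BAF53B appears only in the sample titles, since the genotype label of those samples is that of the dKO samples. The remaining group, WT NPCs, was used only to say which regions were also open without the knockout. The study describes its BAF53B-rescued cells after differentiation, while the labels call these samples NPCs, so the stage of the BAF53B list is uncertain. For ATAC-seq the study describes WT and dKO NPCs of early passage. The titles of those groups carry a digit after NPC that the BAF53B titles lack, and the passage of the BAF53B samples is not given. Whether the dKO samples had received a control virus is not stated in the sources used here. A difference of stage, passage or viral transduction therefore cannot be told apart from that of BAF53B.

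Each group had 2 replicates, and the authors deposited 1 peak list for both of them. Differences between the lists therefore have no replicate check, no SD and no p-value. Intervals are Wilson 95% intervals for shares of peaks and exact Poisson 95% intervals for single pileups, and they cover counting error only. A pileup is the number of DNA fragments covering the summit of a peak, the point of greatest accessibility. To compare lists it was divided by the genome background, the fragment number an average base would have, which was 6.81 in dKO and 6.78 with BAF53B. This background is the lowest local background in each list, and total read numbers are unknown.

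UTX and JMJD3 remove methyl groups from lysine 27 of histone H3, a mark that Polycomb repressive complex 2 places on silent developmental genes. The BAF complex is a chromatin remodeller that uses ATP to slide or evict nucleosomes and so opens enhancers and promoters. As neural progenitors become neurons the complex exchanges subunits, and BAF53A (gene ACTL6A) is replaced by BAF53B (gene ACTL6B). Open DNA is marked by short sequences that transcription factors read. AP-1, a dimer of FOS and JUN proteins, reads TGACTCA or TGAGTCA. SOX proteins read CCATTGT or CCTTTGT, and POU proteins read the octamer ATGCAAAT or ATGCTAAT.

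The sequences that the results turn on are shown first, each from hg38 on the plus strand. The first is the 201 bp around the summit of the BAF53B-only peak in NES, the gene of the progenitor filament nestin. It was among the 5 strongest BAF53B-only peaks away from any transcription start site (TSS), at chr1:156673793-156673993, in intron 2 of the 4-exon transcript. Capitals mark the octamer and SOX words, which stand next to each other close to the summit.
NES intron: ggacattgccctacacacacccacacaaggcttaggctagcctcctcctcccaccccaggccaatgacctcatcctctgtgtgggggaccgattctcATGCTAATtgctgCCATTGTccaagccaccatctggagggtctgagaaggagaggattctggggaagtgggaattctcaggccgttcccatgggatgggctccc

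The next 4 are 61 bp around the AP-1 word, in capitals, of the strongest BAF53B-only distal peaks that hold one. They lie at chr13:30873226-30873286, chr14:77059703-77059763, chr5:139028066-139028126 and chr6:133916822-133916882.
AP-1 site 1: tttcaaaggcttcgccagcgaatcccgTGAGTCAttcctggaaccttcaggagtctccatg
AP-1 site 2: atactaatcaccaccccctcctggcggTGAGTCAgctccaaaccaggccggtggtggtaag
AP-1 site 3: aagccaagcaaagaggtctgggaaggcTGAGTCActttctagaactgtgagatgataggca
AP-1 site 4: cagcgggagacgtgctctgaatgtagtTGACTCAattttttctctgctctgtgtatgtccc

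The last sequence shows 101 bp around a promoter summit found with BAF53B alone. It lies at the start of NEUROG2, a driver of neuron formation, at chr4:112516582-112516682, and capitals mark the E-box CAGCTG (searched as CAGCTG or CAGATG), which proneural factors read.
NEUROG2: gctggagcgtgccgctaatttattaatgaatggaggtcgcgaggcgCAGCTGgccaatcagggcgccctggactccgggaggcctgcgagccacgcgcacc

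The first question was how far the open regions of dKO NPCs were still open with BAF53B. Of the dKO peaks, 11275 overlapped a BAF53B peak by at least 1 bp (44.3%, 43.7 to 44.9%), and 14164 did not (55.7%). In the other direction 11308 BAF53B peaks overlapped a dKO peak (66.7%, 66.0 to 67.4%), and 5640 were found with BAF53B alone (33.3%). The BAF53B list covered 10.8 Mb and the dKO list 15.8 Mb, with median peak widths of 569 and 549 bp. In shared regions the summits lay a median of 36 bp apart, 79.5% of them within 100 bp. Cut to the same length of 16948 peaks by significance, the lists shared 59.8% of the dKO peaks and 60.3% of the BAF53B peaks. That left 6809 dKO and 6730 BAF53B peaks without a partner. The cut shortened only the dKO list, so BAF53B peaks without a partner rose from 5640 as less significant dKO peaks dropped out.

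Turnover followed strength. Peaks found in 1 list alone had low pileups, a median of 34 fragments for dKO-only peaks against 56 for shared ones and of 31 for BAF53B-only peaks against 43. In the weakest decile of the dKO list 7.70% had a BAF53B peak (6.73 to 8.81%), and in the strongest decile 95.7% did (94.9 to 96.4%). Among the strongest decile of BAF53B peaks 99.6% had a dKO peak, and 6 did not. The highest pileup of a list-only peak was 172 fragments in dKO and 73 with BAF53B. All lists end at a −log10 q of 5, and 34.4% of dKO-only and 43.4% of BAF53B-only peaks had a value under 6. An unlisted region is therefore one that did not reach the threshold, not one shown to be closed.

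**Figure D1:**
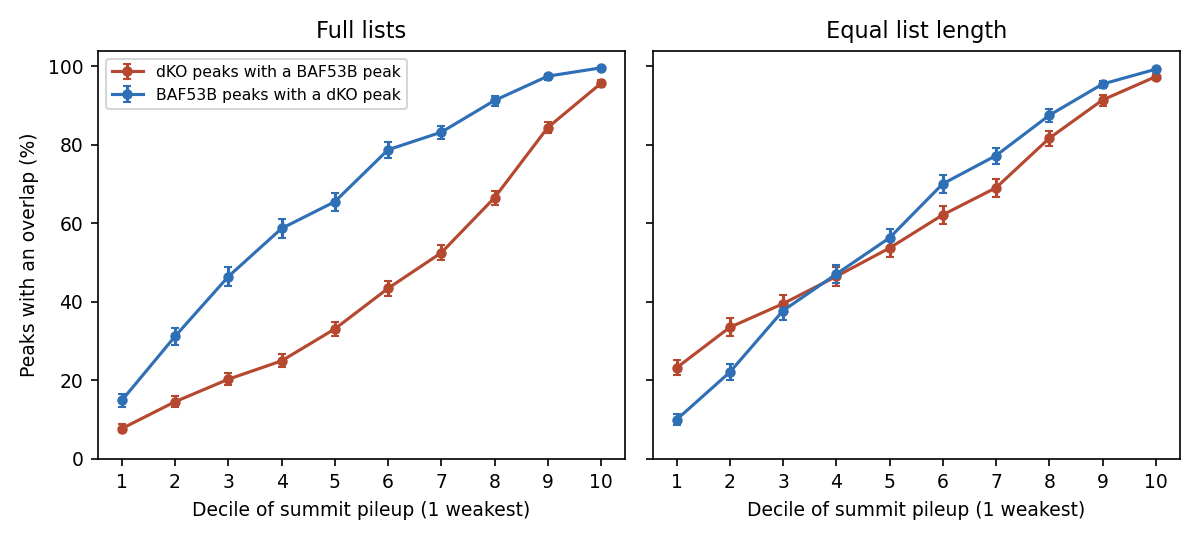
Share of peaks (vertical axis, %) with an overlapping peak in the other list, by decile of summit pileup from weakest to strongest (horizontal axis), for the full lists and for lists of equal length. Points are shares and bars are Wilson 95% intervals; the share climbs from 7.70% to 95.7% in dKO peaks and from 14.9% to 99.6% in BAF53B peaks.

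Shared peaks had lower summit pileups in the BAF53B list. The median log2 ratio of summit pileup over genome background, BAF53B over dKO, was −0.36 (quartiles −0.65 and −0.07), a 0.780-fold level, and 8936 of the 11275 shared dKO peaks were lower (79.3%). A fold of at least 2 was reached downwards by 713 peaks (6.32%) and upwards by 8 (0.071%). The local background around the same peaks, which MACS2 estimates from the neighbourhood, was also lower, with a median log2 ratio of −0.15. The authors' fold over that local background had a median log2 ratio of −0.20, with 71.0% of peaks lower. The share of each library's fragments that fell in peaks is unknown, and its part in these ratios was not tested.

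The difference grew with strength. In the weakest decile of shared peaks by mean pileup the median log2 ratio was 0.01, and in the strongest decile, with a mean of at least 86 fragments, it was −0.71 with 96.0% lower. A shared pair had to pass the calling threshold in both lists, whose lowest pileups were 25 and 26. That condition limits how far from 0 the ratios of the weakest decile (means of 25.5 to 34) can lie. Its part in the trend was not tested. The ratio also followed GC content, the share of G and C within 100 bp of the summit. Shared peaks under 50% GC had a median log2 ratio of 0.01, those of 50 to 60% had −0.28 and those of 60 to 70% had −0.42. Both properties moved together with position, and their part in the ratios was not tested. Among promoter peaks of 60 to 70% GC, the strongest class (a mean of at least 70 fragments) had a median of −0.65 and the weakest (under 40) had −0.13. At the same strength of at least 70, distal peaks under 50% GC had a median of 0.05 (n = 68) and distal peaks of 60 to 70% GC one of −0.74 (n = 200).

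**Figure D2:**
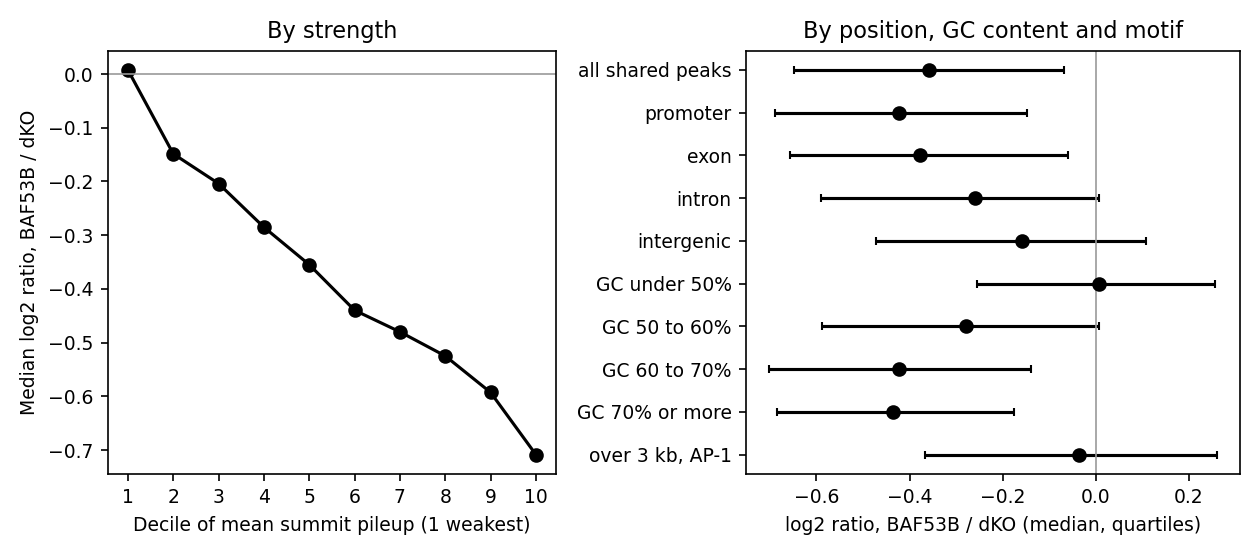
Median log2 ratio of summit pileup over genome background, BAF53B over dKO, in shared peaks. The left panel gives it (vertical axis) by decile of mean pileup, from 0.01 to −0.71; the right panel gives medians (points) and quartiles (bars) by position, GC content and the AP-1 word, where the GC-poor peaks and the distal peaks with AP-1 lie closest to 0.

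Position separated the lists. Promoter peaks, those whose summit was at most 3 kb from a protein-coding TSS, made up 63.9% of the shared dKO set (63.0 to 64.8%). They were 22.2% of the dKO-only set (21.5 to 22.9%) and 10.0% of the BAF53B-only set (9.28 to 10.8%). BAF53B-only peaks were mostly distal, with 39.98% in introns and 45.7% between genes, and 56.5% lay over 50 kb from any protein-coding TSS. For dKO-only peaks these shares were 32.4%, 39.3% and 38.6%. The median GC content was 65.2% in shared, 57.2% in dKO-only and 47.8% in BAF53B-only peaks. With lists of equal length the promoter share was 29.2% in dKO-only and 13.8% in BAF53B-only peaks. Of the dKO promoter peaks 69.6% had a BAF53B peak, against 27.7% of those in introns and 24.5% of those between genes.

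Few of the list-only peaks had a peak in the WT list. That list held 7880 peaks, the fewest of the 3, and overlapped 24.4% of all dKO peaks and 36.7% of all BAF53B peaks. A region absent from it is not shown to be closed in WT NPCs. The WT list overlapped 436 of the dKO-only peaks (3.08%), 445 of the BAF53B-only peaks (7.89%) and 5769 of the shared dKO peaks (51.2%). Among shared peaks, those also in the WT list had a median log2 ratio of −0.46 and the rest one of −0.26. The first were also stronger, with a median dKO pileup of 71 against 45 fragments.

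**Figure D3:**
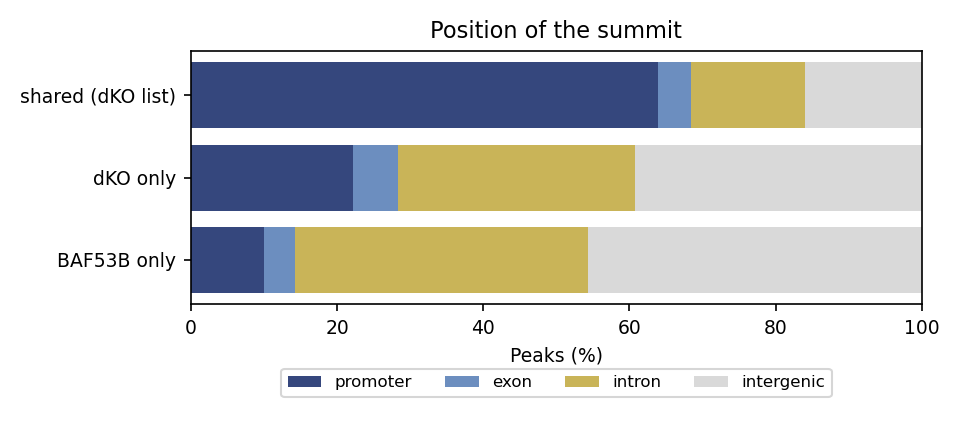
Position of peak summits in shared peaks of the dKO list, dKO-only peaks and BAF53B-only peaks. Bars give the share of each set (horizontal axis, %) in promoters (within 3 kb of a protein-coding TSS), exons, introns and between genes; the promoter share is 63.9%, 22.2% and 10.0%.

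The AP-1 word was more frequent in regions open with BAF53B alone. Searched within 100 bp of summits, it occurred in 932 of the 5640 BAF53B-only peaks (16.5%, 15.6 to 17.5%). The word was in 527 of the 14164 dKO-only peaks (3.72%, 3.42 to 4.05%). The figure for shared dKO peaks was 3.32%, and windows of the same length 2 kb away held it in 3.28% of cases for BAF53B-only and 3.21% for dKO-only peaks. The dKO-only share was thus close to that of the flanks. Away from promoters the share was 17.6% in BAF53B-only, 4.12% in dKO-only and 6.41% in shared dKO peaks.

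The difference was present within classes of GC content. Among distal peaks of 40 to 50% GC, AP-1 was present in 20.1% of the 2752 open with BAF53B alone (18.6 to 21.6%) and in 5.15% of the 2814 open in dKO alone (4.40 to 6.03%). At 60% GC or more the shares were 10.0% and 2.91%. The share also climbed with strength among BAF53B-only distal peaks, from 13.4% at 25 to 29 fragments to 24.9% at 40 to 49 fragments, while the dKO-only share stayed between 3.34% and 4.64% over all classes. The BAF53B-only distal peaks that were also open in WT NPCs had the word in 28.5% of cases (112 of 393, 24.3 to 33.2%) and the others in 16.7% (781 of 4681, 15.6 to 17.8%). Shared distal peaks with AP-1 had a median log2 ratio of −0.04 (n = 261), against −0.22 for all 4072 shared distal peaks.

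The 4 sites printed above come from peaks absent from both the dKO and the WT list. Site 1, between genes upstream of MEDAG, had a pileup of 62 fragments (47.5 to 79.5) and a fold of 5.77 over local background. Site 2, upstream of IRF2BPL, had 58 fragments. Site 3, in an intron, and site 4, between genes and nearest to the mesenchymal factor gene TCF21, had 56 fragments each. The AP-1 word lay 35 to 56 bp from each summit.

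**Figure D4:**
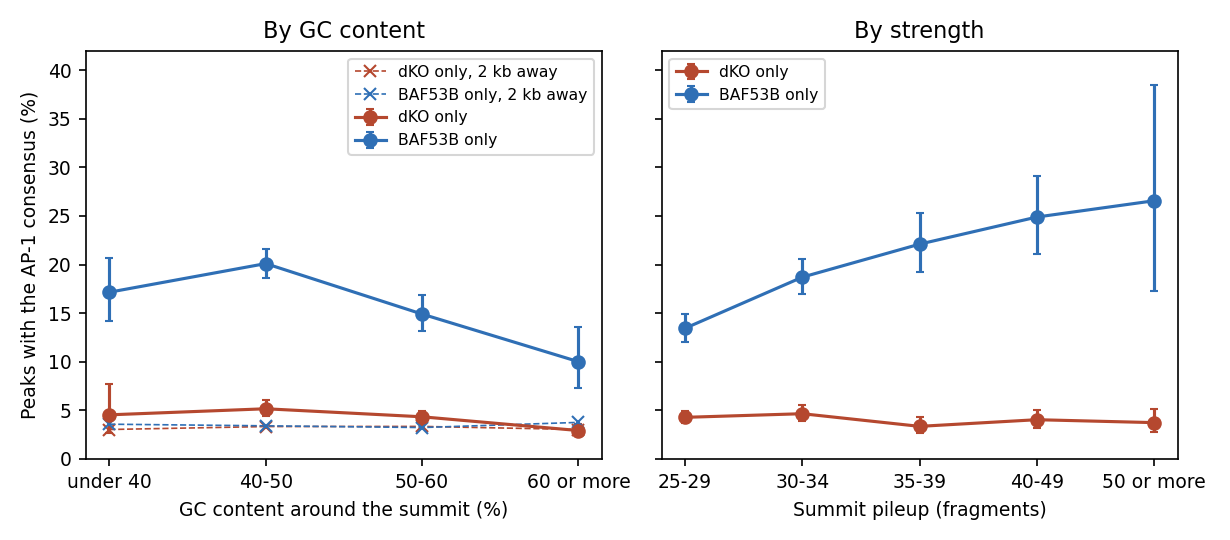
Share of distal peaks with the AP-1 word within 100 bp of the summit (vertical axis, %) in dKO-only and BAF53B-only peaks, by GC content and by summit pileup. Points are shares with Wilson 95% intervals and crosses are windows 2 kb away; the BAF53B-only share is above the dKO-only share in every class, from 10.0% to 26.6% against 2.91% to 5.15%.

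Of the other words, SOX words were found in 11.4% of distal BAF53B-only peaks (10.6 to 12.3%), against 6.996% in the flanks. Among distal dKO-only peaks the values were 8.86% (8.35 to 9.41%) and 6.39%. The E-box was in 29.6% of distal BAF53B-only (28.3 to 30.8%) and 31.3% of distal dKO-only peaks (30.5 to 32.2%), with 18.9% and 21.1% in the flanks. GC boxes of SP and KLF factors (GGGCGGGG) went the other way, in 1.77% of distal BAF53B-only and 5.79% of distal dKO-only peaks. The boundary factor CTCF, searched by its consensus, had 3.82% and 4.83%. Words found in few peaks differed by ratios as large as that of AP-1. NRF1, a factor of housekeeping promoters, was in 6 distal BAF53B-only peaks (0.118%, 0.054 to 0.258%) and 56 distal dKO-only peaks (0.508%, 0.392 to 0.659%), and NFI in 9 (0.177%) and 2 (0.018%). GC content differed between the sets, and only AP-1 was compared within classes of it.

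The NES intron peak was open with BAF53B and in WT NPCs but had no overlapping dKO peak. NES (ENSG00000132688.11, chr1:156668763-156677407, minus strand) had no promoter peak in the dKO or BAF53B list. The peak at chr1:156673415-156674281 had a pileup of 65 fragments (50.2 to 82.8), a fold of 4.27 and a summit 3514 bp downstream of the TSS. Among the distal peaks nearest to NES there was also 1 in the dKO list alone, with 61 fragments, and 1 shared by both lists. As background, the second intron of nestin holds a neural enhancer read by SOX and POU proteins. Over all distal BAF53B-only peaks the octamer was present in 2.48% and in 2.63% of flanks, so the word itself was not enriched there. The other 4 strongest BAF53B-only distal peaks had 68 to 73 fragments. They lay in an intron of KAT6A, at chr21:8229663-8230221, in an intron at chr1:7668492-7668856 and between genes at chr7:3194514-3195297. Those at chr21 and chr1 were also in the WT list. The 5 strongest dKO-only distal peaks had 119 to 172 fragments and none was in the WT list. They lay nearest to CCM2L, LMTK3, CAMTA1, ABHD11 and SLC34A1, and their windows had 59.7 to 69.2% GC.

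Promoters were then read gene by gene. A protein-coding gene was counted as lost where a peak overlapped the 3 kb window around its TSS in the dKO list alone, and as gained where this held in the BAF53B list alone. Of 20033 genes, 8604 had a promoter peak in both lists, 2697 were lost (13.5%) and 411 gained (2.05%). With lists of equal length 1799 were lost and 806 gained. The lost genes had a median dKO pileup of 40 fragments and the gained ones a median BAF53B pileup of 34, against 64 and 47 where both lists had a peak. Loss followed strength. It took 64.1% of the genes whose dKO pileup was 25 to 34 fragments, 17.2% at 50 to 69 (15.9 to 18.5%) and 3.98% at 70 to 99 (3.26 to 4.85%). Genes with a peak in both lists had a median log2 ratio of −0.44, and 86.3% were lower with BAF53B.

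Most epithelial genes open in dKO NPCs had no promoter peak with BAF53B. Of 13 listed, 8 were lost, against 13.5% of all genes, and 0 gained, with 8 lost in lists of equal length as well. The lost ones were CDH1, the adhesion molecule E-cadherin, the keratins KRT8, KRT18 and KRT19, the tight junction genes CLDN3 and CLDN7, the splicing factor gene ESRP1 and GRHL2, a factor that maintains epithelium. Their dKO pileups ran from 50 to 81 fragments. Over all genes 17.2% were lost at 50 to 69 fragments and 3.98% at 70 to 99. The part of strength in the epithelial losses was not tested. CDH1 (ENSG00000039068.20, chr16:68737292-68835537) had a dKO peak of 69 fragments (53.7 to 87.3) with its summit 60 bp upstream of the TSS. KRT18 was assigned a peak of 75 fragments whose summit was over 3 kb upstream, and KRT8 one of 52 fragments.

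The 3 epithelial genes with a peak in both lists were all lower with BAF53B. EPCAM, an epithelial adhesion gene, had 96 fragments in dKO (77.8 to 117) and 44 with BAF53B (32.0 to 59.1). F11R, a junction gene, had 83 (66.1 to 103) and 29 (19.4 to 41.6), a log2 ratio of −1.51. CLDN6 had 72 and 50, from peaks on different sides of its TSS. The median log2 ratio of the 3 was −1.12. Of the distal dKO peaks, 3 to 50 kb from these genes as their nearest, 0 of 14 were kept, against 29.9% of 7930 near all genes. The KRT18 peak of 75 fragments is among the 14 as well. Such low numbers were not particular to epithelial genes, since 0 of 9 were kept near proneural and 1 of 11 near neural crest genes. EPCAM alone of the 13 had a WT promoter peak. In bulk samples, fewer cells of a type and lower accessibility within those cells cannot be told apart.

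Neural progenitor genes split. Of 16 markers, 6 had a peak in both lists, 5 were lost (31.2%, against 13.5% of all genes) and GLI3 was gained (6.25%, against 2.05%). The lost ones were SOX2, a core progenitor factor, its relative SOX3, the RNA-binding gene MSI1 and the patterning genes LHX2 and ZIC1. SOX2 (ENSG00000181449.4, chr3:181711925-181714436) had 70 fragments in dKO (54.6 to 88.4) with a summit 59 bp upstream of its TSS and no BAF53B peak. The other 4 had 31 to 45 fragments and a −log10 q of 5.12 to 9.48, and of these SOX3 and ZIC1 were lost with lists of equal length too. GLI3, a Hedgehog pathway factor gene, had 29 fragments with BAF53B. With lists of equal length 3 were lost and 3 gained, and at a −log10 q of at least 10 it was 1 lost, SOX2, and 3 gained, SOX1, VIM and FABP7. SOX1, VIM and FABP7 did have dKO peaks, with a −log10 q of 5.69 to 9.43.

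The 6 progenitor genes with a promoter peak in both lists had a median log2 ratio of 0.27, while over all genes with both the median was −0.44 and 1176 of 8604 had a ratio above 0. The 6 had 28 to 61 fragments in dKO, against a median of 64 over all genes with both. Among all shared peaks the median log2 ratio was −0.15 at means of 34 to 38 fragments and −0.48 at 55 to 61. The part of strength in this difference was not tested. The ratio was 0.50 to 0.69 for SOX1, FABP7 and VIM, and at most 0.05 from 0 for CDH2 and PTPRZ1. SOX1 had 46 fragments in dKO (33.7 to 61.4) and 67 with BAF53B (51.9 to 85.1). FABP7, a radial glia lipid carrier, had 28 and 45, and the filament gene VIM had 37 and 52. CDH2 had 42 and 42, from peaks that do not overlap, and PTPRZ1 had 35 and 36. SOX9 was lower, with 61 and 48 fragments. The intervals of the dKO and BAF53B pileups overlapped for all 6 genes. Such overlap does not show that the pileups were equal, and no single gene was tested.

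Some factors that start neuron and oligodendrocyte formation had a peak with BAF53B alone. Of 11 proneural and oligodendrocyte bHLH genes, 4 were gained, against 2.05% of all genes, 1 was lost and 1 kept. NEUROG2 and NEUROD1, drivers of neuron formation, had 32 and 33 fragments with BAF53B, and OLIG1 and OLIG2, needed for oligodendrocytes, had 33 and 39. NEUROG3 was lost, with 43 fragments in dKO. NEUROD4 was kept with 64 and 42. Their −log10 q was 5.17 to 8.30 for the gained and 6.97 for the lost gene, and at a −log10 q of at least 10 none of the list was gained or lost. Distal peaks near the same genes were 9 in the dKO list alone, 1 in the BAF53B list alone and 0 shared. Near all protein-coding genes dKO-only distal peaks also outnumbered BAF53B-only ones, with 5557 and 1887, and 2373 dKO peaks were shared. One of the 9, nearest to NEUROG2, had 54 fragments, more than the gained peak at its promoter.

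**Figure D5:**
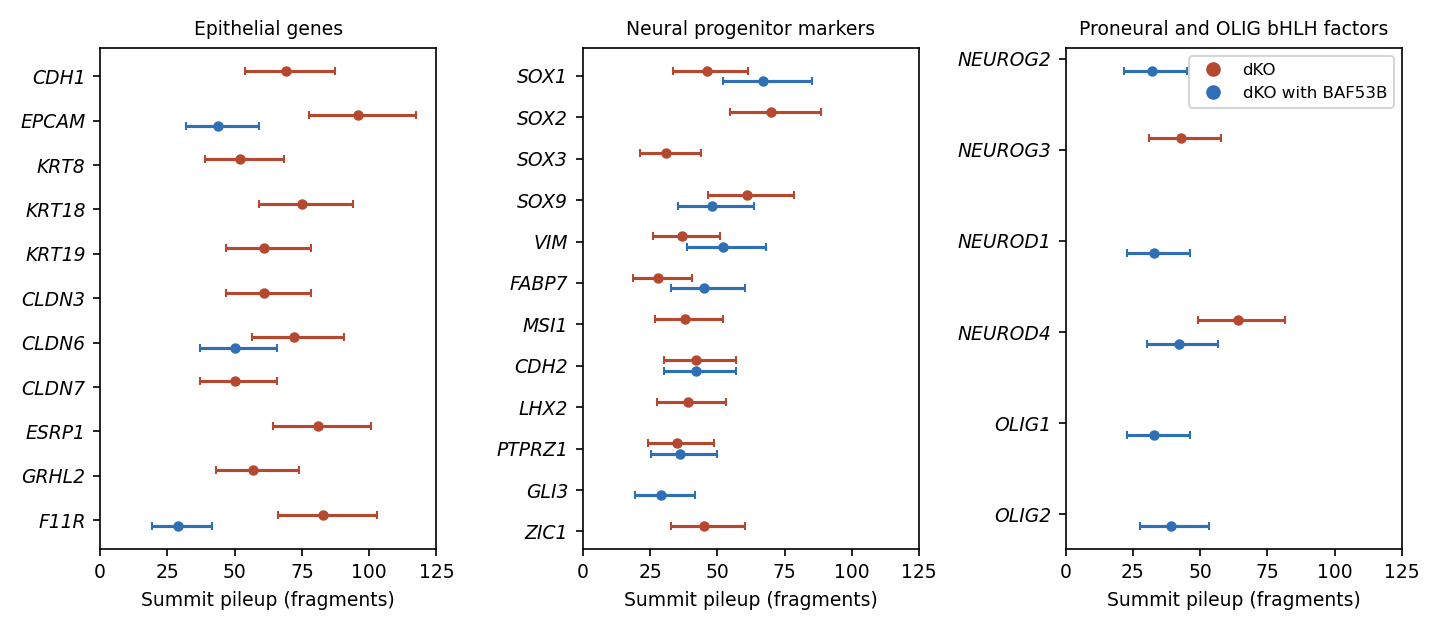
Summit pileup (horizontal axis, fragments) of the strongest promoter peak in dKO and with BAF53B for listed genes with a peak in either list. Points are pileups with exact Poisson 95% intervals, and a missing point means that no peak was called; 8 epithelial genes have a dKO point alone, and NEUROG2, NEUROD1, OLIG1 and OLIG2 have a BAF53B point alone.

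Genes of mature neurons did not move together. Of 16 cytoskeletal and identity genes of neurons, 5 were kept, 2 lost (12.5%, against 13.5% of all genes) and 2 gained (12.5%, against 2.05%). TUBB3, a neuronal tubulin, was lost from 53 fragments, and DPYSL3 from 35. INA, a neurofilament gene, and ELAVL3, an RNA-binding gene, were gained with 35 fragments each. GAP43, a growth cone gene, had 30 fragments in dKO and 46 with BAF53B, and MAP2, a dendrite protein gene, had 69 and 42. With lists of equal length 0 were lost and 4 gained.

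Many synapse genes lost their promoter peak. Of 32 listed, 13 were lost (40.6%, against 13.5% of all genes). NRXN2, a presynaptic adhesion gene with 45 fragments, was the 1 gained (3.12%, against 2.05%). The lost ones had 26 to 60 dKO fragments, among them the scaffold genes DLG4 (60), SHANK3 (57) and SHANK2 (50). With lists of equal length 6 were lost and 2 gained. The 7 kept genes had a median log2 ratio of −0.79. The transporter gene SLC17A7 had 84 fragments in dKO and 43 with BAF53B.

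Of 38 axon guidance genes 12 were lost (31.6%, against 13.5% of all genes) and 0 gained (against 2.05%), with 8 lost and 0 gained in lists of equal length. UNC5B, a netrin receptor, was lost from 83 fragments (66.1 to 103) and the Eph receptor EPHA2 from 72. The ephrin genes EFNA5 and EFNB2 were lost from 65 and 64. The receptor EPHB1 kept a peak with 78 and 38 fragments. EPHA3 and EPHA4 were slightly higher, each with a log2 ratio of 0.09. The 13 kept genes had a median log2 ratio of −0.38, close to that of all genes.

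Astrocyte genes were few. Of 13, 2 were kept, and AQP4 and ALDOC were lost (15.4%, against 13.5% of all genes). ALDH1L1 and NFIB were gained (15.4%, against 2.05%). GLUL, glutamine synthetase, kept a peak with 76 fragments in dKO and 34 with BAF53B.

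The genes of the BAF complex itself mostly kept their promoter peaks. Of 22 core subunits, 14 were kept, and BRD9 and BCL7A were lost (9.09%, against 13.5% of all genes). SMARCD3, ARID1B and BRD7 were gained with 31 to 38 fragments (13.6%, against 2.05%). The ATPase gene SMARCA4 (BRG1) had 84 fragments in dKO and 59 with BAF53B. Of the progenitor-form subunits, ACTL6A (BAF53A) had 98 and 79 and PHF10 was lost from 35. Of the neuronal-form subunits, DPF1 and SS18L1 were lost from 52 and 50, and DPF3 had 106 and 74. ACTL6B, the gene of BAF53B, had 34 fragments in dKO and 30 with BAF53B at its own promoter. That value does not check the labels, since the added copy came from a virus. The same holds for the deleted genes, because their promoters remain. KDM6A had 45 and 32 fragments, and KDM6B had 173 (148 to 201) and 71 (55.5 to 89.6), a log2 ratio of −1.28.

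Notch genes, which hold progenitors back from differentiation, were kept in 12 of 26 cases. NOTCH3, HES4 and HEYL were lost (11.5%, against 13.5% of all genes) and 0 gained (against 2.05%). NOTCH1 had 109 fragments in dKO (89.5 to 131) and 40 with BAF53B (28.6 to 54.5). HES1, its main target in progenitors, had 113 and 67. HEY1 and HEY2 were higher, with log2 ratios of 0.13 and 0.26. The median of the kept genes was −0.35.

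Polycomb and KDM6 genes were kept in 13 of 23 cases. A further 2 were lost (8.70%, against 13.5% of all genes), CBX2 among them, and PCGF6 was gained (4.35%, against 2.05%). The methyltransferase EZH2 had 44 and 43 fragments, and its partner SUZ12 had 55 and 32. Of 30 collagen and matrix genes, 8 were kept, 4 lost (13.3%) and 2 gained (6.67%). FN1, fibronectin, had 31 and 45 fragments.

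Among the genes of the AP-1 proteins the lost share was near that of all genes. Of 15, 9 were kept, 0 gained, and FOS and BATF2 lost (13.3%, against 13.5% of all genes). FOS was lost from 85 fragments (67.9 to 105). JUN had 163 fragments in dKO (139 to 190) and 87 with BAF53B (69.7 to 107), and JUND had 102 and 51. FOSL1 had 48 and 48. The median log2 ratio of the 9 was −0.54, against −0.44 over all kept genes.

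Of 19 apoptosis genes 12 were kept, and CDKN1A and PMAIP1 were lost (10.5%, against 13.5% of all genes). All 12 had a lower pileup with BAF53B, as 86.3% of all kept genes did, with a median log2 ratio of −0.66 against −0.44. The survival gene MCL1 had 81 fragments in dKO and 35 with BAF53B. For 5 of the 12 the dKO and BAF53B intervals were separate. Of 33 cell cycle genes 26 were kept, with a median log2 ratio of −0.40, 1 was gained and 5 were lost (15.2%), namely CCND1, CCND2, CDT1, PLK1 and CENPA. The cyclin gene CCND1 was lost from 114 fragments (94.0 to 137), at a peak upstream of its TSS, and CDC20 had 141 and 71. TOP2A had 90 and 91, and AURKA had 55 and 68.

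Markers of other cell types were read as a check of the cells. Of 12 pluripotency genes, 2 were kept, 3 were lost (25%, against 13.5% of all genes) and 0 gained (against 2.05%). Mesenchymal genes had 3 of 12 kept, 4 lost (33.3%) and PRRX1 gained (8.33%). Neural crest genes had 3 of 11 kept and 1 lost (9.09%), and endothelial genes 1 of 10 kept and 0 lost. With lists of equal length 1 pluripotency, 1 mesenchymal and 1 neural crest gene were lost, and 1 mesenchymal gene was gained.

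The 10 genes of strongest dKO peak lost in both the full and the equal-length lists included 3 whose dKO peak did overlap a BAF53B peak just beyond the window, TSKS, ASPDH and CTRL. Over all genes this held for 9 lost and 10 gained genes. The other 7 were CCND1, ASB6 (111 fragments), SLC25A37 (107), TMEM129 (107), ZBTB46 (103), ENSG00000254553 (101) and UBTF (101). Of the 10 strongest gained genes TXNDC9, MAP3K7CL, ZFC3H1, PHETA2 and ANGPTL6 were such edge cases. The other 5 were GDPD5 (61 fragments), the protocadherin PCDH17 (55), TMEM109 (52), ICAM5 (51), an adhesion gene of the forebrain, and NEBL (49).

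Among genes with a promoter peak in both lists and a mean pileup of at least 50, the lowest log2 ratio was that of SPAG4, with 147 fragments in dKO (124 to 173) and 39 with BAF53B (27.7 to 53.3), a log2 ratio of −1.91. GDF11, a growth factor gene, followed with 126 and 37. NOSIP and PRR12 share 1 peak with 136 and 42, and PSMC4, a proteasome gene, had 149 and 47. In the other direction BORA and MZT1, mitotic genes that share a promoter, had 39 fragments in dKO (27.7 to 53.3) and 78 with BAF53B (61.7 to 97.3), a log2 ratio of 1.01. AP5Z1 had 35 and 66, and ATG13 and HARBI1 share 1 peak with 37 and 68.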

How the data were processed

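Per the study's methods and the submitters' processing notes, the authors cut adapters with cutadapt 1.13, aligned reads to hg38 with Bowtie2 2.2.5, removed duplicates with SAMtools 1.3.1 and Picard 1.90 and made the peak lists with MACS2. Each group has, per the labels, 1 list for both replicates. How the replicates were joined, the Tn5 shift and the calling options are not given in the sources used here. The deposited fold is a ratio of summit pileup to local background, each plus 1, the deposited −log10 p-value is the Poisson score of that pair, and the deposited score used for ranking is its q-value, adjusted by MACS2, again as −log10. Whole pileups were solved for from fold and −log10 p, for 100% of peaks in each list. The lowest local background of a list was taken as its genome background, and total read numbers are unknown.

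Peak ends lay inside the hg38 chromosomes. Genes came from GENCODE 44 (20033 protein-coding genes). Where a peak had several partners the strongest was used (151 dKO peaks). A gene's value is that of its strongest promoter peak in each list. Motifs were matched on both strands within 100 bp of the summit. Python 3.11.15, pandas 2.3.3, scipy 1.17.1 and pysam 0.24.0 were used. Simulated data tested the solving of pileups, the 1 bp overlap, the edges of the promoter window and the matching of AP-1, SOX and octamer words. Other steps were not tested in this way. Named genes were taken from the gained and lost members of 20 gene lists, the 10 strongest lost and gained genes, the 5 most extreme ratios in each direction, the 5 strongest distal list-only peaks, and KDM6A, KDM6B and ACTL6B. Members with a peak in both lists were named after their values were seen, and some members and 1 sequence are not reported here. The comparison, the gene lists and the motifs were chosen with earlier results of these data known. Alternatives were stricter significance, equal length, other overlap rules, autosomes, other windows and other units. Edge overlaps, GC classes and a pileup minimum were added after seeing the data.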

Additional observations from a re-analysis of the deposited data

How the results depend on the processing

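No paired analysis was possible because both replicates of a group share 1 peak list, and for the same reason no replicate could be left out. The median log2 ratio of shared peaks was below 0 in all 9 settings, from −0.56 to −0.20. The stricter significance (−log10 q of at least 10) was applied to both lists before pairing. Its 5924 dKO-only and 1323 BAF53B-only peaks thus include some whose partner fell below it. In the full lists 3056 dKO-only and 666 BAF53B-only peaks reached it. At a −log10 q of at least 10 the shared parts were 49.2% of dKO and 81.2% of BAF53B peaks, the ratio −0.42 with 85.5% lower, the promoter shares 47.9% (dKO-only) and 24.9% (BAF53B-only) and the AP-1 shares 2.77% and 18.0%. With equal list length these values were 59.8%, 60.3%, −0.42, 84.9%, 29.2% and 13.8%, with AP-1 in 15.1% of BAF53B-only peaks, 806 gained genes, 48 lost genes of the lists (74 in the full lists) and a range of 0.41 between the autosomes' median log2 ratios (0.46 in the full lists, highest on chromosome 4 and lowest on 19 throughout). Equal length leaves the BAF53B list whole, so it can only add to the gains. A reciprocal overlap of 50% gave 38.4%, 57.6%, −0.38, 80.1%, 26.1% and 21.6%, with AP-1 in 13.7% of BAF53B-only peaks. With the summit inside the other peak the shared parts were 43.5% and 66.0%, and 11.1% of BAF53B-only peaks were in promoters. The fold over local background gave −0.20 with 71.0% lower, and pairs with a mean pileup of at least 50 gave −0.56 with 91.3% lower. AP-1 shares in dKO-only and BAF53B-only peaks were 2.15% and 9.34% within 50 bp, 4.28% and 18.0% over 3 kb from any TSS, and 5.15% and 20.1% at 40 to 50% GC. Promoter shares were 32.4% and 18.1% with the TSS of all annotated genes and 17.4% and 7.02% with a 1 kb window. The cause of these shifts was not tested. Lost genes numbered 1799 to 3055 and gained genes 348 to 806 over the settings, and the gained proneural and OLIG genes were below the stricter threshold. Depth is unknown in reads, and regions under the calling threshold give no value.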

Other observations

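Gene families differed in how their promoters fared. Of 96 potassium channel genes (KCN), 16 were kept, 21 lost and 7 gained, against 13.5% lost and 2.05% gained over all genes, and with lists of equal length 10 were lost and 11 gained. Protocadherins had 7 of 66 kept, 9 lost (13.6%) and 3 gained (4.55%). Of 82 ribosomal protein genes 64 were kept, 6 lost (7.32%) and 1 gained (1.22%). Of 515 zinc finger genes (ZNF) 351 were kept, 63 lost (12.2%) and 3 gained (0.583%). The kept ribosomal genes had a median log2 ratio of −0.37 and the kept zinc finger genes one of −0.45. Of 416 olfactory receptor genes, which are silent outside the nose, 4 were lost and 3 gained, and none had a peak in both lists.

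Chromosomes differed in the ratio of shared peaks. The median log2 ratio was −0.60 on chromosome 19 (884 peaks), −0.51 on chromosome 17 and −0.49 on chromosome 22, against −0.14 on chromosome 4 (441 peaks) and −0.19 on chromosome 13. The median GC content of the shared peaks was 64.7% on both chromosomes 19 and 4, and among peaks of 60 to 70% GC the medians were −0.65 and −0.16. Median mean pileups were 62.5 and 45 fragments, and the local background had median log2 ratios of −0.38 and 0.02. The part of strength in this difference was not tested. BAF53B-only peaks were 10.4% of the BAF53B list on chromosome 19 and 43.8% on chromosome 4.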
